A study of Mus musculus with 4 samples.

Results

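The interferon-stimulated genes of the liver were examined as a list of 52 mouse genes, chosen by symbol. The gene list of the matrices held 50 of them among 32285 genes, and Mx1 and Mx2 were not analysed here. The 50 genes were split by the interferon that mainly drives them. Of these, 10 were taken as mainly type I genes (the Ifit and Oas families), 9 as mainly interferon-gamma genes (Gbp2, Gbp3, Gbp4, Gbp5, Gbp7, Iigp1, Igtp, Irgm1 and Irgm2), and 31 were other members of the response. They were measured by droplet-based single-cell RNA sequencing of perfused and digested mouse livers. There was 1 library from mice on a normal chow diet (NCD), 2 libraries from mice on a high-fat diet (HFD), and 1 library from mice on a high-fat diet that were then given Jiangtang Qingre Formula (JQF), a mixture prepared from several medicinal herbs. The methods of the study name male C57BL/6J mice, and give an age at purchase that the labels do not hold. The labels and the methods count 1 liver sample each for NCD and JQF and 2 for HFD, that is 1 per library. The labels name an immune cell type and a stem cell line for every sample, which does not describe the mixture of cells found. The p-values of the comparisons between diets measure the spread between the HFD libraries, pooled in part over genes, because NCD and JQF had no replicate and were assumed to vary like HFD. Those of the comparisons of a cell type with the mean of the others rest on the spread over all 4 libraries.

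Interferons are secreted proteins that make cells resistant to infection. Type I interferons bind the receptor formed by IFNAR1 and IFNAR2, and signal through the kinases TYK2 and JAK1 to a complex with STAT2 and IRF9, which binds the interferon-stimulated response element (ISRE). Interferon-gamma, made mainly by T and NK cells, binds another receptor and acts at gamma-activated sites (GAS), and also by way of the factor IRF1. The IFIT proteins bind viral RNA and the OAS proteins sense double-stranded RNA, whereas the guanylate-binding proteins (GBP) and the immunity-related GTPases (IRG, such as Iigp1 and Irgm1) attack the membranes around intracellular microbes.

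The promoter sequences of 4 members are shown because these genes carry the patterns described below: Ifit1 for the mainly type I genes, Bst2 for a gene that was higher in HFD in every tested cell type, Gbp2 for a gamma gene that was higher in HFD neutrophils, and Gbp7 for a gamma gene that moved in opposite directions in neutrophils and macrophages. Each is the RefSeq sequence on GRCm38.p6 from 250 bases before to 50 bases after the transcription start, written on the strand of the gene. Capitals mark ISRE core matches, that is GAAANNGAAA on either strand. The positions are chr19:34640639-34640938 on the plus strand for Ifit1, chr8:71537423-71537722 on the minus strand for Bst2, chr3:142620413-142620712 on the plus strand for Gbp2 and chr3:142530086-142530385 on the plus strand for Gbp7.
Ifit1: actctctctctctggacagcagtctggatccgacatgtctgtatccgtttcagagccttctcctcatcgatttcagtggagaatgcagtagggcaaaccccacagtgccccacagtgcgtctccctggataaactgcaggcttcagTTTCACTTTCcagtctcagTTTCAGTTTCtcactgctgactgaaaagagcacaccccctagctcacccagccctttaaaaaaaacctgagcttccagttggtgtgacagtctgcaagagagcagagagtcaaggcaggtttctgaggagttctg
Bst2: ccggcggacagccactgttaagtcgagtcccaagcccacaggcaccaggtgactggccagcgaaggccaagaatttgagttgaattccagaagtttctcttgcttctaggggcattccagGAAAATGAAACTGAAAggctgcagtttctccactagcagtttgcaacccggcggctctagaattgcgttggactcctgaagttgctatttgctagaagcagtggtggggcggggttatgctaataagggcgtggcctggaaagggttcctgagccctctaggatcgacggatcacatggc
Gbp2: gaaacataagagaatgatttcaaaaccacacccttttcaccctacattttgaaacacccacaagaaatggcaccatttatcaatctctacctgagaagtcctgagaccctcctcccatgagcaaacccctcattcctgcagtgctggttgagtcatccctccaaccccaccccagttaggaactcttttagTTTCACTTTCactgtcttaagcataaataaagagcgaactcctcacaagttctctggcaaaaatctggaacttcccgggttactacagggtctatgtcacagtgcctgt
Gbp7: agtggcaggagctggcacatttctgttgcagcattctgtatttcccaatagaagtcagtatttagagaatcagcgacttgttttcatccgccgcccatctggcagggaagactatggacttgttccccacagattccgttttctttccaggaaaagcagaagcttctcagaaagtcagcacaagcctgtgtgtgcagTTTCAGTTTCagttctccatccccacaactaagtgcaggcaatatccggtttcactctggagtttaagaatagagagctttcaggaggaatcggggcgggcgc
The Ifit1 and Bst2 windows each held 2 ISRE matches, and the Gbp2 and Gbp7 windows held 1 each. The match nearest to the start began at -85 in Ifit1, -124 in Bst2, -59 in Gbp2 and -53 in Gbp7, counted from the start site. A promoter was found for 40 of the 50 measured members, and 26 of these 40 genes (65.0%) had an ISRE match in at least 1 promoter, beside 3.99% of 27025 genes in the RefSeq table. All 7 of the gamma genes with a promoter had one, as did 6 of 9 mainly type I genes. The GAS core TTCNNNGAA, which reads the same pattern on both strands, was found in 10 of 40 members (25.0%) beside 9.55% of all genes. Gbp7 had 2 GAS matches outside the ISRE match, the 1 GAS match of Bst2 overlapped an ISRE match, and Ifit1 and Gbp2 had none. These matches are descriptions of sequence and not of binding.

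Several members lie in clusters of related genes on GRCm38. Ifit1 (chr19:34640871-34650009) sits beside Ifit2, Ifit3 and Ifit3b, and Gbp2 (chr3:142620602-142638008) beside Gbp3, Gbp5 and Gbp7. Reads of close copies may be split. In the last 500 bases of their transcripts, Oas1a shared 42.3% of its 90-base words with Oas1g, Ifi211 shared 59.4% with Ifi205 and Mndal, Ifi209 shared 37.1% with Ifi214, Trim30a shared 17.8% with Trim30d and Ifit3 shared 6.57% with Ifit3b, so the counts of these genes are uncertain. In all, 7 members overlapped a neighbour on the same strand, among them Igtp and Irgm2 with each other and Gbp4 with Gbp8 and Gbp9.

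After filtering, 5975 cells remained in NCD, 6516 in HFD replicate 1, 10259 in HFD replicate 2 and 8540 in JQF, with 67615639 to 108062769 UMIs (unique molecular identifiers, that is single captured RNA molecules) in the kept cells of a library. NCD stood apart from the other libraries. Its median of 13081 UMIs per cell compared with 7608 to 8884 elsewhere, its endothelial cells made up 3336 of its kept cells against 94, 1098 and 559 in the others, and 10.1% of its cells carried markers of 2 lineages and were left out, against 3.31% to 5.68%. Between 12 and 27 cell barcodes were shared by any pair of libraries. Cells were gated by fixed marker genes, so that T cell stands for T cell-like, and likewise for every other name. In 7 types, with at least 50 cells in every library, UMIs were summed per library and tested. Levels are given as CPM, the UMIs of a gene scaled to the total UMIs of that type in that library.

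More of the interferon-stimulated genes were high in macrophages than in B cells. With libraries as blocks, 39 of the 50 members were higher and 2 lower in macrophages than in the mean of the other types, beside 32.9% of 13728 genes called higher there and 25.4% called lower. Neutrophils had 27 members higher (31.0% of all genes) and 7 lower (31.2%), or 20 and 14 without TMM scaling of the library sizes, whereas B cells had 4 higher (25.8%) and 42 lower (27.2%). In B cells 9 of 10 mainly type I genes were below the mean of the other tested types, with a median log2 difference of -2.77, beside 2.00 in macrophages. Macrophages stood out for the DNA sensor Ifi204 (3.91 ± 0.20 SE on the log2 scale, adjusted p = 3.25e-14) and for Oas2 (3.62 ± 0.15, 6.96e-16). Neutrophils stood out for Slfn1, a Schlafen gene of immune cell quiescence (6.65 ± 0.19, 2.99e-19), and for the exonuclease Isg20 (3.92 ± 0.14, 3.24e-17). In endothelial cells 22 members were higher (36.4%) and 14 lower (33.5%), with 9 lower without HFD replicate 2 or without JQF and 19 without NCD, and the largest difference was that of Iigp1 (4.56 ± 0.32, 7.42e-12). T cells had 17 members higher (30.7%) and 16 lower (26.9%), NK cells 10 (19.7%) and 16 (19.2%), and dendritic cells 8 (33.0%) and 19 (23.8%). Without TMM scaling the counts were 21 higher and 12 lower in T cells and 16 and 12 in NK cells, and leaving out 1 library gave 6 to 17 higher in NK cells (6 without HFD replicate 1, 17 without NCD). In T cells 10 were lower without HFD replicate 1, in B cells 2 were higher without JQF, and in macrophages 4 were lower without NCD. Ifit1 was among the members above the mean of the other types in T cells (2.82 ± 0.33, 1.16e-07) and in NK cells (2.77 ± 0.34, 5.04e-07). Oas2 and Isg20 were named after their values were seen. These contrasts average over diets between which several of the genes differed.

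**Figure D1:**
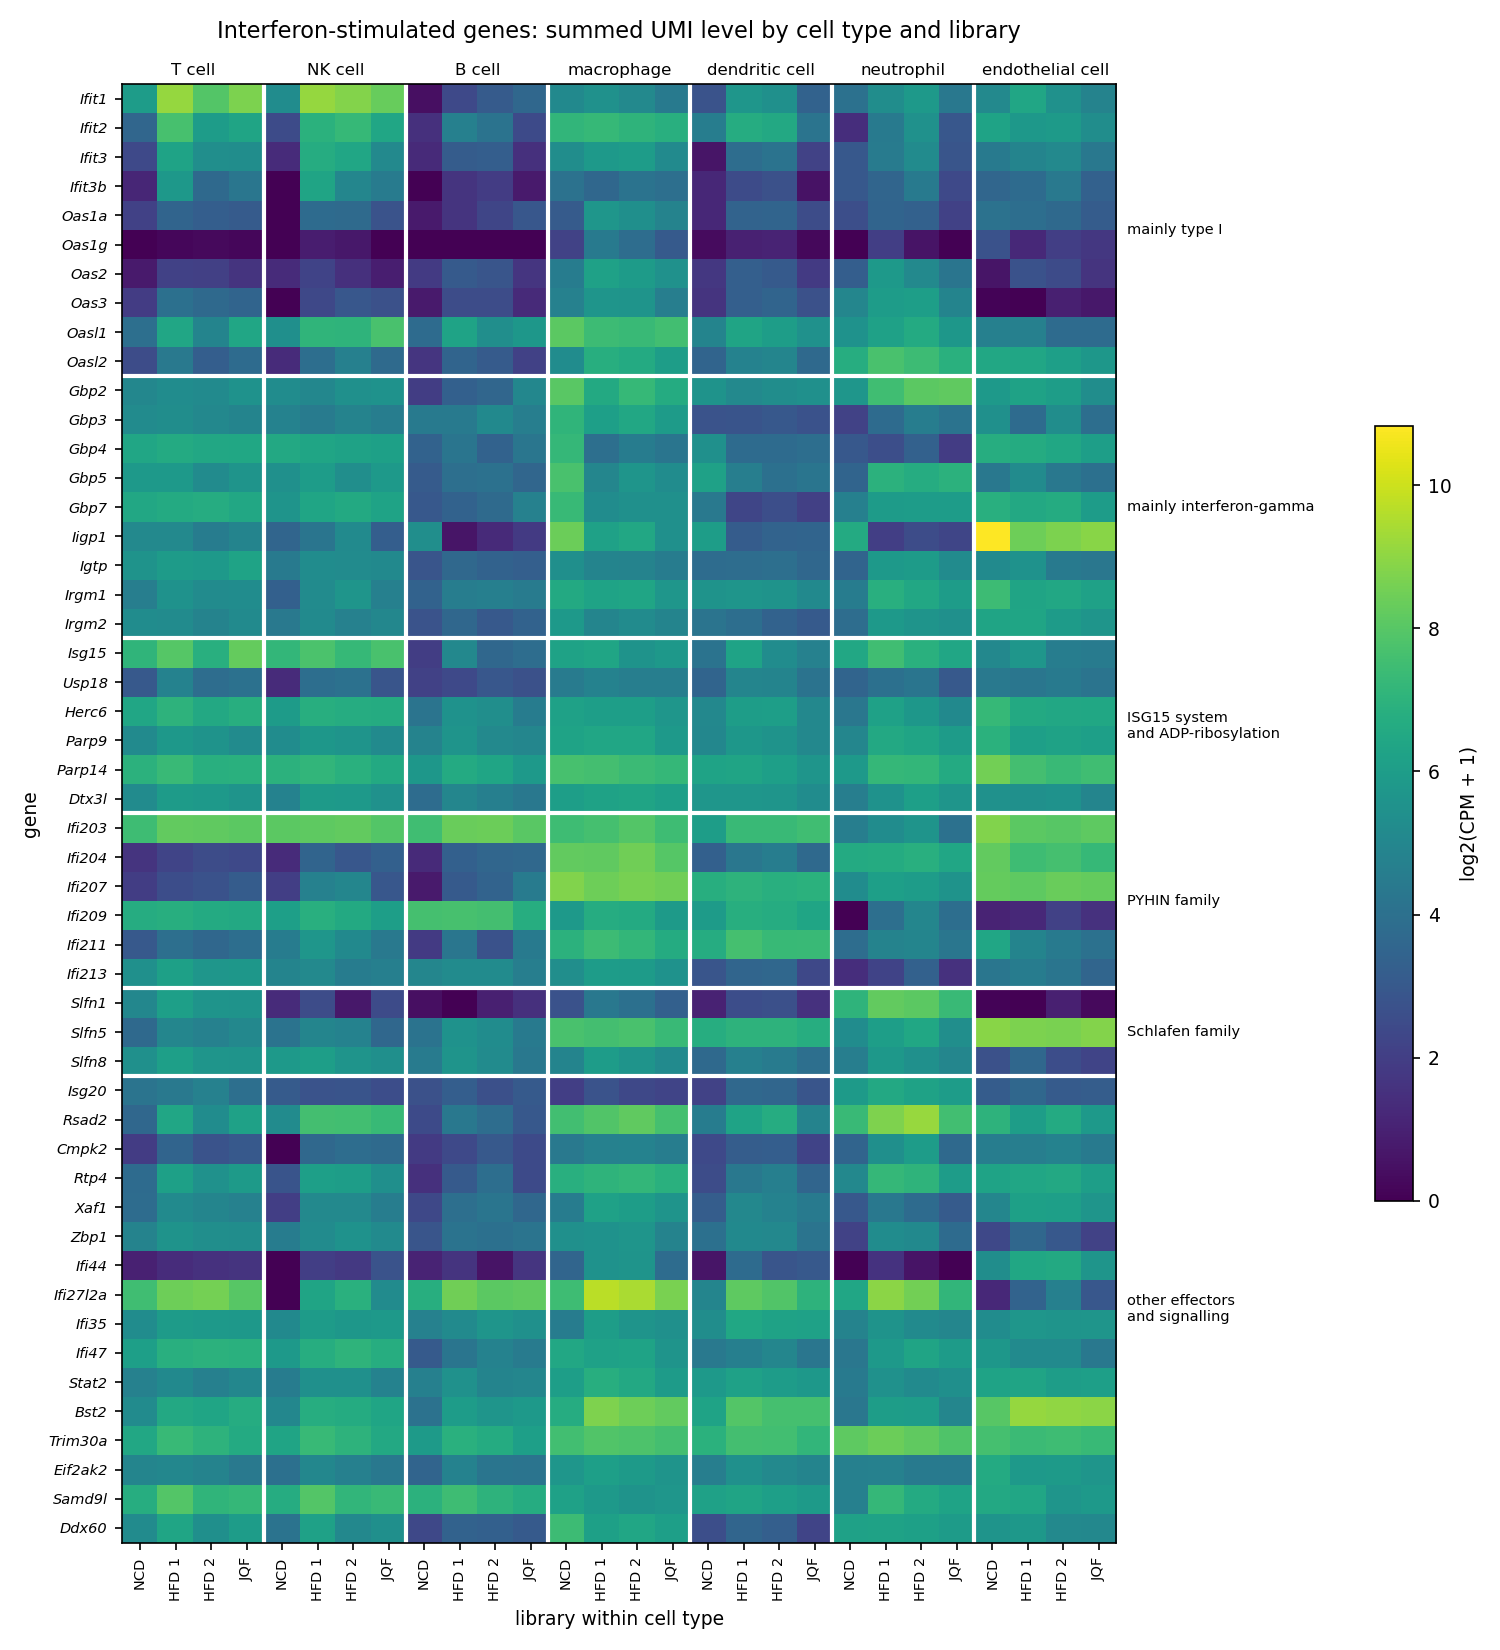
Level of each of the 50 measured members, as log2(CPM + 1), in every library and marker-gated cell type, with members grouped by sub-list. Brighter colours mark higher levels. The Ifit rows of T and NK cells are darker in the NCD library than in the HFD libraries, while Iigp1 is brightest in NCD endothelial cells (1819 CPM).

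The first comparison, HFD against NCD, asks how the response differed in the livers of mice on the high-fat diet. Most of the tested mainly type I genes were called higher in HFD T and NK cells. Summed over the 10 genes, the level in T cells was 105 CPM in NCD, 1030 and 418 in HFD replicates 1 and 2, and 664 in JQF, and in NK cells it was 87.5, 1022, 902 and 695 CPM in the same order. In B cells the sums were 22.7, 142, 98.3 and 84.6 CPM. In each of the 3 types both HFD libraries lay above NCD, and the HFD libraries of T cells differed from each other by more than those of NK or B cells. In T cells 19 of 49 tested members were called, all of them higher (4.66% of 14924 genes tested were higher and 7.59% lower). In NK cells 15 of 47 were called, again all higher (6.60% of 10809 genes were higher and 10.4% lower), and in B cells 17 of 46 were higher (7.58% of 10943) and 1 lower (10.1%). DESeq2 called fewer members higher, 10 in T cells, 6 in NK cells and 2 in B cells, and edgeR called 10 members in B cells with a stricter gate and 9 with every cell thinned to 2000 UMIs. Without TMM scaling 23 were called in NK cells.

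**Figure D2:**
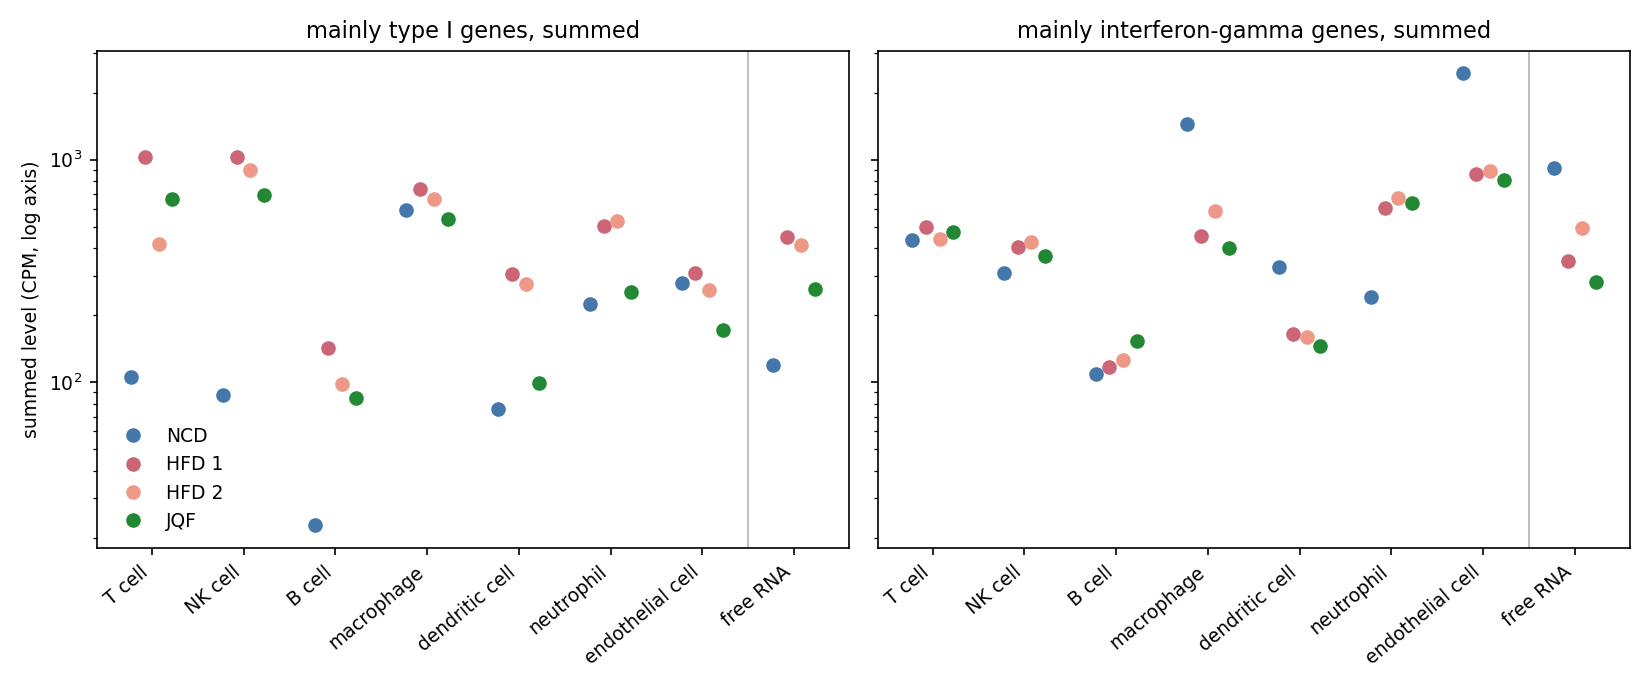
Summed level of the 10 mainly type I genes and of the 9 mainly interferon-gamma genes, in CPM on a log axis, with 1 point per library in each cell type and in the RNA outside cells. The type I points of HFD and JQF lie above NCD in T cells (418 to 1030 against 105 CPM) and NK cells, whereas the gamma point of NCD is the highest in macrophages (1441 CPM) and endothelial cells (2440 CPM, of which Iigp1 gave 1819).

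Ifit1, whose protein binds viral RNA lacking a methylated cap, gave 62.7 CPM in NCD T cells, 561 and 243 in HFD, and 413 in JQF. In NK cells its values were 37.7, 552, 457 and 317 CPM. The HFD libraries did not overlap NCD in either type, and the log2 difference was 2.64 ± 0.43 (SE, adjusted p = 0.00625) in T cells and 3.53 ± 0.27 (2.04e-05) in NK cells. In T cells the Ifit1 difference was 1.97 with HFD replicate 2 alone and 3.09 with HFD replicate 1 alone, so its size moved with the library left in. Ifit3 gave 4.28, 76.0, 39.9 and 38.3 CPM in T cells (3.71 ± 0.40, 0.00116). In NK cells a single Ifit3 UMI was counted in NCD (1.51 CPM) against 103 and 85.2 CPM in HFD, a ratio of 64.6 with a 95% counting interval from 11.5 to 2554. Ifit3b, its close copy, was at 0 in NCD NK cells and at 78.5 and 30.7 CPM in HFD, which is at least 14.1-fold higher when 3 UMIs are allowed for a count of 0. Of the mainly type I genes, 7 of 9 tested were higher in T cells, 7 of 8 in NK cells and 3 of 8 in B cells. Their median log2 difference was 2.22 in T cells, 5.19 in NK cells (3.47 with the 3 genes at 0 in NCD set to their bounds) and 2.25 in B cells, beside medians of 0.08, 0.15 and 0.08 over all genes tested. NK cells in NCD numbered 62, and 3 of them held 92.0% of the 25 Ifit1 UMIs counted there. The RNA outside cells, a source of UMIs in cells that do not express a gene, also held more Ifit1 in HFD (147 and 69.4 CPM) and JQF (126) than in NCD (20.9). Ifit1 in T cells of each library was above that level, and its part in the T and NK cell values was not tested.

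The myeloid cells differed among themselves. In dendritic cells 27 of 50 members were higher in HFD (11.1% of 14384 genes) and 4 lower (13.3%), and 8 of 10 mainly type I genes were higher, with a median of 1.90 (all genes 0.11). In all, 31 members were called there by edgeR, 18 by DESeq2 and 15 with thinned cells. Ifit1 was at 5.80 CPM in NCD dendritic cells and at 50.7 and 41.7 CPM in HFD (2.88 ± 0.25, 0.00156). Ifit3, with 2 UMIs in NCD (0.528 CPM), gave 13.7 and 16.4 CPM in HFD, a ratio of 28.4 (95% counting interval 7.83 to 236). Both genes were low in NCD dendritic cells and similar between the HFD libraries. In every library the dendritic cell level of Ifit1 was below that of the RNA outside cells, whose part was not tested. In neutrophils 23 of 48 were higher (7.82% of 9620) and 1 lower (7.52%), and 4 of 9 mainly type I genes were among the higher, with a median of 1.10 (all genes 0.15). In macrophages 12 of 50 were higher (5.99% of 12965) and 5 lower (5.15%), with a median of 0.80 for the mainly type I genes (all genes 0.06). There the genes of the OAS family, most of which make the 2′,5′-oligoadenylates that activate RNase L, were the ones called: Oas1a gave 7.73 CPM in NCD and 49.9 and 41.4 in HFD (2.59 ± 0.25, 0.0220), and Oas1g, Oas2, Oas3 and Oasl2 were higher too, whereas Ifit1 gave 33.9 CPM against 43.7 and 32.8 (0.20 ± 0.23, 0.581). The macrophage and neutrophil calls depended on the gating. With the cells that carried markers of 2 lineages kept, 0 members and 0 of all genes were called in these types by edgeR, although 25 macrophage members and 29 neutrophil members had an unadjusted p under the 0.05 threshold. With every cell thinned to 2000 UMIs, 6 members were called in macrophages, and 0 of 6511 genes passed in neutrophils, where 20 members had an unadjusted p under the threshold. DESeq2 called 7 members higher and 6 lower in macrophages and 7 higher in neutrophils. With thinned cells the median of the mainly type I genes was 2.01 in neutrophils (7 genes), 1.30 in macrophages (10 genes) and 2.18 in dendritic cells (9 genes).

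In endothelial cells more members were called lower than higher. There 4 of 48 tested members were higher in HFD (6.98% of 13160 genes) and 11 were lower (7.99%), and 0 of the 9 mainly type I genes tested were called by edgeR, with 3 at an unadjusted p under the threshold. DESeq2 called 7 members, 2 higher and 5 lower. The median of the mainly type I genes was -0.44, beside 0.02 over all genes, but 0.030 with the cells that carried markers of 2 lineages kept, -0.093 with thinned cells and -0.16 without HFD replicate 2, and the NCD library, with a summed level of 280 CPM, lay between the HFD libraries at 309 and 259 CPM, while JQF was at 172 CPM. Those called lower included Iigp1, Ifi211, Irgm1, Ifi204 and Rsad2. Ifi211, a PYHIN gene, gave 84.6 CPM in NCD, 28.2 and 20.8 in the HFD libraries and 15.3 in JQF (-2.05 ± 0.26, 1.27e-07), with NCD above both HFD libraries. The 4 called higher were Bst2, Ifi27l2a, Ifi44 and Xaf1.

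Of the 9 mainly interferon-gamma genes, 4 were called lower in HFD macrophages and 4 in dendritic cells, whereas 6 were called higher in HFD neutrophils. Their summed level was 1441 CPM in NCD macrophages against 453 and 586 in HFD and 401 in JQF, and 330 CPM in NCD dendritic cells against 164, 159 and 145. The RNA outside cells ran the same way, with 914 CPM in NCD, 351 and 491 in the HFD libraries and 281 in JQF, above the dendritic cell level in each library, and its part was not tested. In endothelial cells it was 2440, 865, 891 and 809 CPM, of which Iigp1 alone gave 1819, 344, 409 and 474, and the other 8 genes gave 621, 521, 482 and 335 CPM. In neutrophils it went the opposite way, with 241 CPM in NCD and 606, 672 and 641 in the others. The sums of T cells (437, 499, 440 and 473 CPM), NK cells (308, 405, 428 and 369) and B cells (109, 117, 125 and 153) varied little beside these. Without Iigp1, however, B cells gave 69.7, 117, 124 and 150 CPM, and neutrophils 143, 603, 667 and 637, with NCD the lowest in both. Macrophages gave 1107, 381, 498 and 359 CPM without it, and dendritic cells 265, 156, 149 and 135. By the test of single genes, 4 of 9 were lower in macrophages (5.15% of all genes were), 4 in dendritic cells (13.3%) and 2 in endothelial cells (7.99%), whereas 6 were higher in neutrophils (7.82%) and 1, Iigp1, was lower. With the cells that carried markers of 2 lineages kept, 0 of the macrophage and neutrophil calls were left. Irgm1 was higher in T cells and in NK cells. In B cells Gbp2 and Irgm1 were higher and Iigp1 was lower, but the Gbp2 difference turned to -0.13 with thinned cells. The median log2 differences were -1.07 in macrophages, -0.66 in dendritic cells, -0.37 in endothelial cells, 2.06 in neutrophils, 0.13 in T cells, 0.45 in NK cells and 0.59 in B cells, beside 0.02 to 0.15 over all genes. With thinned cells they were -0.53 in macrophages, -1.02 in dendritic cells, 0.81 in NK cells and 1.16 in B cells, and a stricter gate gave 0.067 in NK cells.

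Gbp4, a guanylate-binding protein, gave 148 CPM in NCD macrophages, 14.3 and 22.1 in HFD and 17.7 in JQF (-2.95 ± 0.29, 0.0227). In dendritic cells it gave 42.5, 12.8, 12.8 and 14.0 CPM (-1.84 ± 0.15, 0.00152). NCD was the highest library for Gbp4 in both types by a wide margin, and also in the RNA outside cells (67.2 CPM, against 44.3, 42.1 and 48.4), which was above the dendritic cell level in each library. In neutrophils Gbp5, which promotes inflammasome assembly, gave 10.2 CPM in NCD, 123 and 104 in the HFD libraries and 122 in JQF (3.38 ± 0.46, 5.29e-05), and Gbp2 gave 51.2, 180, 271 and 292 CPM (2.06 ± 0.37, 0.000700). The same Gbp5 was lower in HFD macrophages (-2.34 ± 0.32, 0.0325) and dendritic cells (-2.01 ± 0.24, 0.00373). Gbp7 was likewise higher in neutrophils (1.18 ± 0.39, 0.0473) and lower in macrophages (-1.93 ± 0.16, 0.0199). It was called lower in dendritic cells too. Irgm1, which regulates the other IRG proteins and autophagy, was higher in T, NK and B cells and in neutrophils and lower in endothelial cells (170, 78.9, 89.2 and 71.4 CPM, -1.14 ± 0.22, 0.000199). Igtp was called in neutrophils (10.2, 54.7, 60.0 and 36.1 CPM, 2.40 ± 0.49, 0.00225).

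Iigp1, a GTPase of the vacuole membrane, was lower in HFD in 5 of the 7 types. Its level in endothelial cells was 1819 CPM in NCD, 344 and 409 in the HFD libraries and 474 in JQF (-2.42 ± 0.23, 2.78e-10). In NCD macrophages it was 334 CPM, against 71.9, 88 and 41.8 (-2.02 ± 0.20, 0.0227), and in dendritic cells 64.9, 7.86, 9.90 and 10.4 CPM (-2.98 ± 0.19, 0.00112). NCD stood above the other 3 libraries in each of these types. Iigp1 was also called lower in neutrophils (97.3, 3.04, 4.69 and 3.80 CPM) and B cells (39.6, 0.530, 1.42 and 2.56 CPM), but not in T cells (33.7, 33.0, 22.1 and 28.4 CPM). The RNA outside cells, or free RNA, held 549 CPM of Iigp1 in NCD and 41.7, 102 and 39.2 CPM in the others. The Iigp1 UMIs per UMI of endothelial markers were 0.184 in the free RNA of NCD, 0.358 in its neutrophils and 0.711 in its B cells, from 57 and 108 Iigp1 UMIs, and 2.12 in its dendritic cells. In NCD this ratio was 0.777 in macrophages, 0.836 in T cells and 0.229 in endothelial cells. The part of free RNA in the values of any of these types was not tested.

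**Figure D3:**
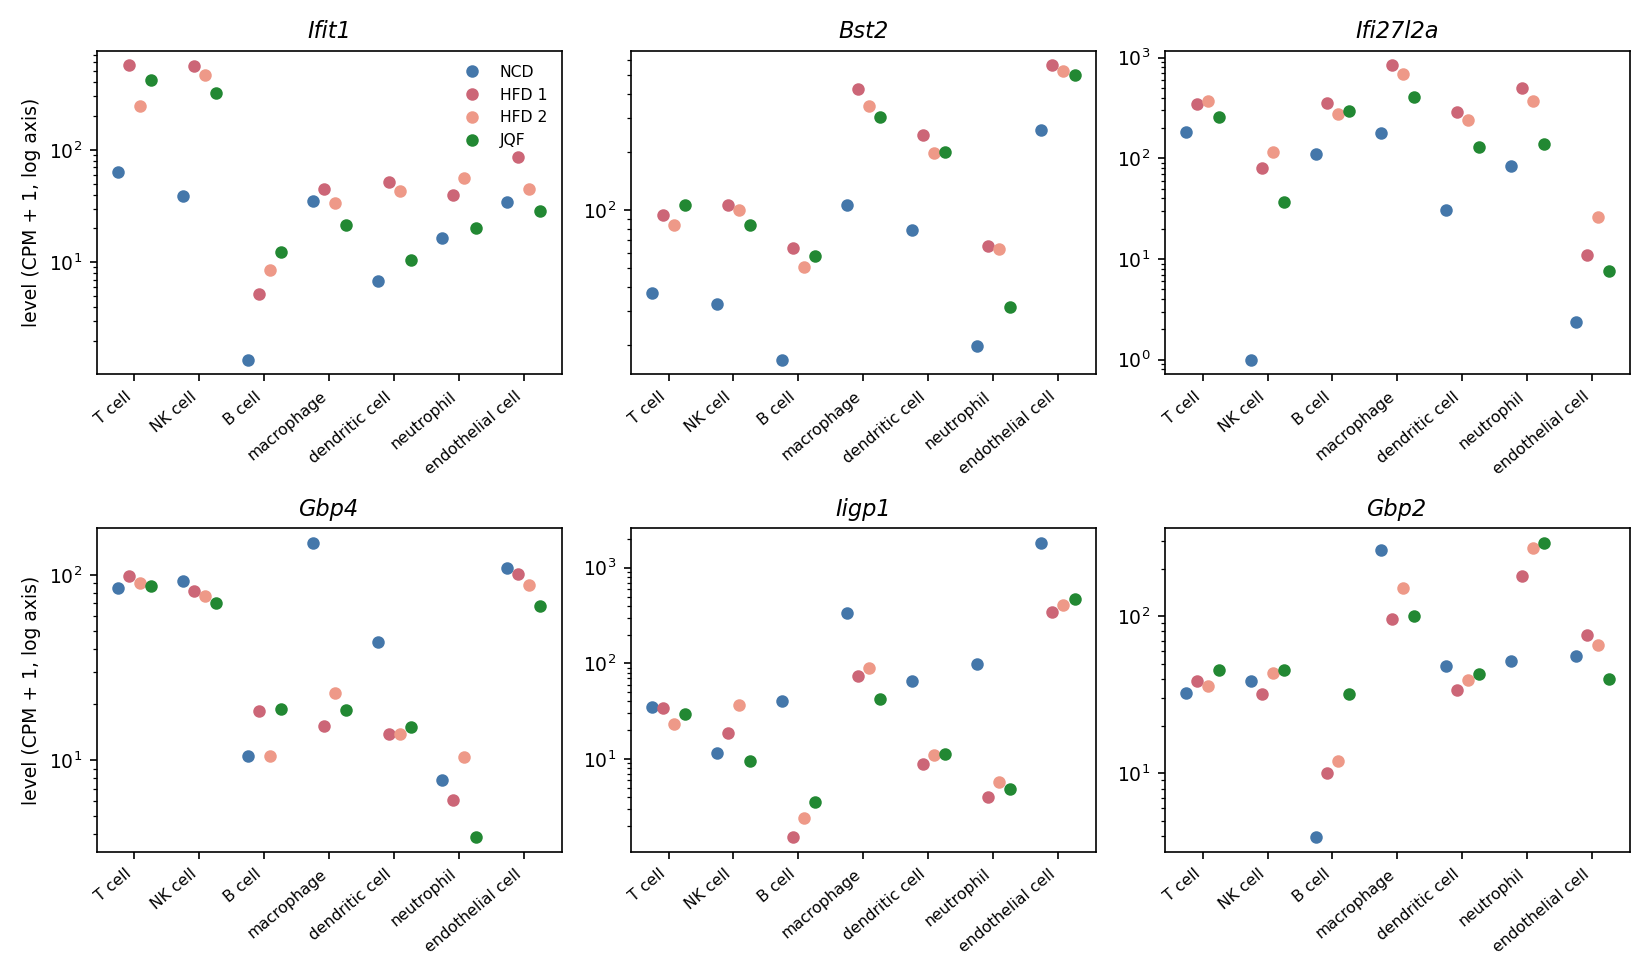
Levels of Ifit1, Bst2, Ifi27l2a, Gbp4, Iigp1 and Gbp2 in every library of the 7 tested cell types, as CPM + 1 on a log axis. Bst2 and Ifi27l2a are lowest in NCD in each type, and within macrophages Gbp4 and Iigp1 are highest in NCD (148 and 334 CPM).

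Among the other 31 members, a pair was higher in HFD in all 7 tested types. Bst2, or tetherin, which holds budding virus at the cell surface, gave 36.2 CPM in NCD T cells against 93.0 and 82.5 in HFD, and 105 CPM in NCD macrophages against 424 and 344. Its log2 differences ran from 0.91 (endothelial cells) to 1.91 (macrophages). Ifi27l2a, a mitochondrial protein of the IFI27 family, gave 177 CPM in NCD macrophages, 837 and 696 in HFD and 404 in JQF (2.15 ± 0.24, 0.0269). In dendritic cells it gave 29.5, 285, 237 and 128 CPM (3.03 ± 0.21, 0.00112). It was at 0 in NCD NK cells and at 78.5 and 115 CPM in HFD, at least 19.8-fold higher. The RNA outside cells held 33.4 CPM of Ifi27l2a in NCD, 515 and 580 in the HFD libraries and 183 in JQF, and its part in these values was not tested. The HFD libraries were above NCD for both genes in every tested type. Xaf1, an antagonist of inhibitors of apoptosis that was named after its values were seen, was higher in 6 types. Rsad2, the radical enzyme viperin, was higher in 5 types (in B cells its difference turned to -0.57 with a stricter gate) and lower in endothelial cells (129, 64.8, 98.3 and 56.1 CPM, -0.73 ± 0.23, 0.0261), and in neutrophils it gave 159, 420, 573 and 188 CPM (1.57 ± 0.31, 0.00164).

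The ubiquitin-like modifier Isg15 passed the test in B cells (2.93 CPM in NCD, 31.8 and 11.4 in HFD, 2.76 ± 0.68, 0.0266) and in dendritic cells (16.4 CPM against 77.8 and 37.2, 1.70 ± 0.49, 0.0484). In T cells, where it was at 134 CPM in NCD, the HFD libraries fell on both sides of NCD, at 251 and 114 CPM. Usp18, the protease that removes Isg15 and dampens the type I receptor, was higher in T cells (7.22, 27.1 and 13.8 CPM, 1.46 ± 0.39, 0.0424) and dendritic cells (10.3, 29.8 and 28.7 CPM, 1.40 ± 0.19, 0.00529). Over the 6 genes of the ISG15 system and ADP-ribosylation, 3 were higher in dendritic cells and in neutrophils, 2 in T cells and in B cells (4.66% to 11.1% of all genes were higher in these types), while 3 were lower in endothelial cells (7.99%). Stat2, a subunit of the type I complex, was called in 0 of 7 types by edgeR, with an unadjusted p under the threshold in 1 type and log2 differences from -0.29 to 0.87. Zbp1, a sensor of left-handed nucleic acid, was higher in dendritic cells (14.8, 33.9 and 32.5 CPM, 1.06 ± 0.18, 0.00910) and neutrophils (adjusted p = 0.00234), where 2 UMIs in NCD (3.41 CPM) compared with 38.0 and 34.2 CPM in HFD, a ratio of 10.5 with a 95% counting interval from 2.87 to 87.9. The RNA outside cells held 8.93 CPM of Zbp1 in NCD and 43.3 and 42.8 in HFD, above the neutrophil level in each library. Of Isg15 it held 40.0 CPM in NCD and 101 and 60.8 in HFD. The part of this RNA in the Zbp1 and Isg15 values was not tested.

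Of the 6 PYHIN genes, which encode DNA sensors and related nuclear factors, 4 were higher in dendritic cells, 3 in B cells and 1 each in T cells, NK cells, macrophages and neutrophils (4.66% to 11.1% of all genes in these types), and 3 were lower in endothelial cells (7.99%). Ifi204 gave 8.97 CPM in NCD dendritic cells, 18.9 and 22.8 in HFD and 12.1 in JQF (1.11 ± 0.26, 0.0245), and 296, 178, 199 and 150 CPM in endothelial cells (-0.79 ± 0.22, 0.0109). The direction of Ifi204 was thus opposite in these types, and its difference varied among the 7 types (adjusted p = 0.00308 by the joint edgeR test). Slfn1 was higher in T cells, dendritic cells, macrophages and neutrophils, with 131, 296, 275 and 159 CPM in neutrophils (1.04 ± 0.29, 0.0198).

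**Figure D4:**
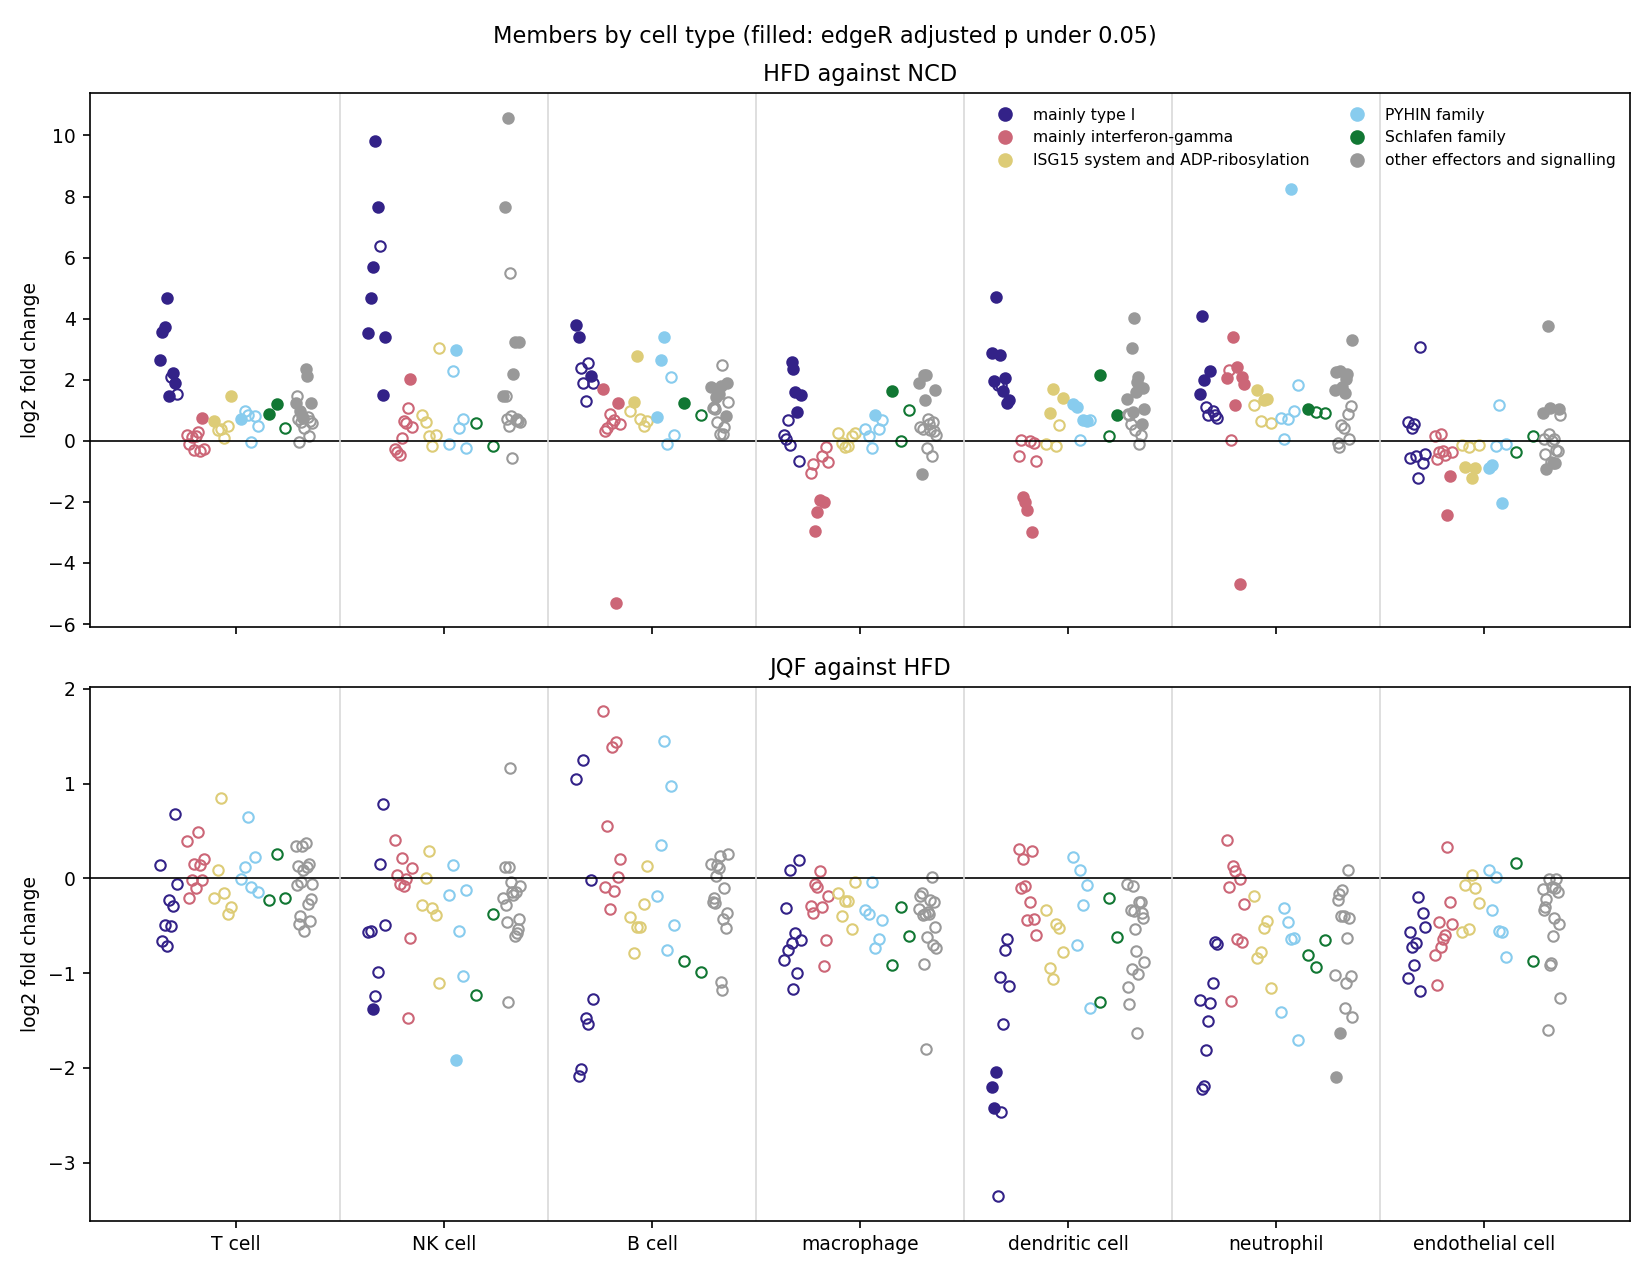
Log2 difference of every tested member between HFD and NCD (and between JQF and HFD) in each of the 7 cell types, with filled points where the adjusted p of edgeR was under 0.05. Points of genes at 0 in NCD, such as Ifi27l2a in NK cells, depend on the prior count of the fit and are not sizes.

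The difference between HFD and NCD was itself tested for a change from type to type, in a fit of all 7 types with 6 residual degrees of freedom. These come from the HFD libraries, so this test also assumes that NCD varies like HFD. It varied among types for 31 of the 50 members, beside 16.8% of 13728 genes. Gbp7 gave the smallest adjusted p (0.000428). Of the 9 mainly interferon-gamma genes 8 were among the 31, all but Gbp3, and of the 10 mainly type I genes 5 were, namely Ifit1, Ifit2, Ifit3, Oas1a and Oasl1.

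The second comparison, JQF against HFD, asks how the response differed when mice that had been fed the high-fat diet were given the formula. In the methods, the NCD and HFD mice were given distilled water instead. Between 0 and 3 members per type were called, all lower in JQF. Dendritic cells had 3 of 50 (0.0556% of all genes were lower there): Ifit1 at 9.55 CPM in JQF against 50.7 and 41.7 in HFD (-2.20 ± 0.18, 0.0159), Ifit2 at 17.2 against 104 and 91.1 (-2.43 ± 0.16, 0.0134), and Ifit3 at 3.45 against 13.7 and 16.4 (-2.05 ± 0.27, 0.0472). JQF was below both HFD libraries for each, and above NCD for Ifit1 and Ifit3 only. NK cells had 2 of 47 (0.213%), Ifit3 at 33.7 CPM against 103 and 85.2 (-1.38 ± 0.26, 0.0317) and Ifi207 at 6.75 against 25.7 and 30.0 (-1.92 ± 0.41, 0.0456). Neutrophils had 2 of 48 (0.0936%), the nucleotide kinase Cmpk2 at 11.9 CPM against 41.0 and 62.8 (-2.10 ± 0.42, 0.0377) and Ifi27l2a at 137 against 496 and 370 (-1.63 ± 0.29, 0.0182). DESeq2 called 3 members lower in dendritic cells and 0 in NK cells and neutrophils. A stricter gate left 0 members called by edgeR in dendritic cells and neutrophils. With the cells that carried markers of 2 lineages kept, 1 was left in dendritic cells and 0 in neutrophils. With thinned cells 0 were left in neutrophils, and with at most 10% mitochondrial UMIs 0 in NK cells. Other settings called more. Dendritic cells had 8 without TMM scaling, 7 without the gene filter, 7 with at most 10% mitochondrial UMIs and 10 with thinned cells, all lower. Neutrophils had 7 with at most 10% mitochondrial UMIs and 6 without the gene filter, all lower. NK cells had 7 without the gene filter, 6 of them lower. Both comparisons share the HFD libraries. The RNA outside cells held less Ifit2, Ifit3, Ifi207, Cmpk2 and Ifi27l2a in JQF than in either HFD library. Ifi27l2a was at 183 CPM there against 515 and 580, and Ifit3 at 20.8 against 44.5 and 52.3. Ifit1 in that RNA lay between the HFD libraries (126 against 147 and 69.4). The part of this RNA in the JQF calls was not tested.

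In T cells, B cells, macrophages and endothelial cells 0 members were called in JQF against HFD by edgeR and by DESeq2, beside 1.41%, 0.302%, 0.00771% and 0.874% of all genes called by edgeR in either direction. At an unadjusted p under the 0.05 threshold there were 5 members in T cells, 11 in B cells, 22 in macrophages and 14 in endothelial cells. Without the filter on low genes edgeR called 18 in macrophages and 3 in endothelial cells, all lower, and 3 in T cells, 2 higher and 1 lower. Without TMM scaling it called 2 in T cells, 1 higher and 1 lower, and 1 in macrophages, which was lower. The median difference of the mainly type I genes was -1.79 in dendritic cells, -1.37 in B cells (-0.54 with the cells that carried markers of 2 lineages kept, and -0.57 over the 2 genes left with thinned cells), -1.31 in neutrophils, -0.69 in endothelial cells, -0.67 in macrophages, -0.56 in NK cells and -0.29 in T cells, beside -0.03 to 0.00 over all genes. In T cells that median was 0.38 with HFD replicate 2 alone and -0.49 with HFD replicate 1 alone. Among genes with at least 10 UMIs over the 4 libraries, JQF lay below both HFD libraries for 40 of 48 members in neutrophils (36.3% of all such genes), 41 of 50 in dendritic cells (44.0%) and 40 of 50 in macrophages (38.9%), but for 20 of 50 in T cells, the share of all genes there (40.0%). The count was 35 of 50 in endothelial cells (27.0%), 33 of 49 in NK cells (45.8%) and 25 of 48 in B cells (44.3%). In the untested types it was 44 of 50 in monocytes (45.7%), 23 of 48 in epithelial cells (13.8%), 25 of 46 in plasmacytoid dendritic cells (36.7%) and 8 of 41 in hepatocytes (32.5%). The difference of the JQF effect among types passed the test for 0 of 50 members by edgeR (0.211% of all genes), with 19 at an unadjusted p under the threshold. Without the filter on low genes it passed for 17 members, and without TMM scaling for 1. Of the 9 mainly interferon-gamma genes, 0 were called in any type by edgeR, with 1 to 3 per type at an unadjusted p under the threshold. Their median differences ran from -0.60 in endothelial cells to 0.20 in B cells.

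To see how many cells carried the type I signal, each cell was thinned to 2000 UMIs and shallower cells were left out. T cells with at least 5 UMIs of the 10 mainly type I genes made up 0.746% in NCD (exact 95% interval 0.243% to 1.73%), 15.4% (13.8% to 17.1%) and 6.14% (5.12% to 7.30%) in HFD, and 10.2% (9.26% to 11.3%) in JQF. In NK cells the shares were 1.61%, 15.5%, 14.0% and 8.27%, and in dendritic cells 0.758%, 4.32%, 3.27% and 0.365%. Neutrophils had 1.05%, 5.15%, 5.94% and 0.983%. Both HFD libraries were above NCD in each type. JQF was below both HFD libraries in NK cells, dendritic cells and neutrophils and between them in T cells. The NCD shares of NK cells, dendritic cells and neutrophils rest on 1 cell each, with exact intervals up to 8.66%, 4.15% and 5.73%. In dendritic cells and neutrophils these overlap the HFD intervals. In NK cells the JQF interval (5.32% to 12.16%) overlaps that of HFD replicate 2 (from 9.62%) and just reaches that of HFD replicate 1 (from 12.15%). B cells stayed under 1% in all libraries, and 0 of 57 NCD hepatocytes reached 5 UMIs, which allows a share of up to 5.26% (3 cells of 57). The 10% of T cells with the most type I UMIs held 92.1% of them in NCD, 64.2% and 71.5% in HFD replicates 1 and 2 and 66.0% in JQF, a share that is also higher where UMIs are sparse, as in NCD (0.209 per thinned cell). Without thinning, 11.7% of NCD T cells had an Ifit1 UMI, against 41.4% and 28.5% of those from the HFD livers and 38.2% of those from the JQF liver, at median depths of 6554 to 10637 UMIs per cell. In B cells the share was 0.339%, 1.72%, 2.71% and 4.01% at 4905 to 8102 UMIs.

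For the gamma genes the same share was 37.7% in NCD endothelial cells (36.0% to 39.4%), against 5.56%, 9.01% and 7.02% in the others. Without Iigp1, a list made after the data were seen, it was 3.35% in NCD endothelial cells and 1.11%, 2.38% and 0.739% in the others. In macrophages the share for all 9 genes was 10.8%, 2.82%, 4.21% and 2.76%, and in neutrophils 2.11%, 9.17%, 7.99% and 6.63%. Without Iigp1 the macrophage shares were 5.76%, 2.11%, 3.01% and 2.26%. NCD was the highest library in the first 2 types and the lowest in neutrophils. Its neutrophil share rests on 2 of 95 cells, with an exact interval from 0.256% to 7.40%. That overlaps the neutrophil intervals of HFD replicate 1 (from 6.66%), HFD replicate 2 (from 5.63%) and JQF (from 4.42%). These intervals cover counting error only.

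**Figure D5:**
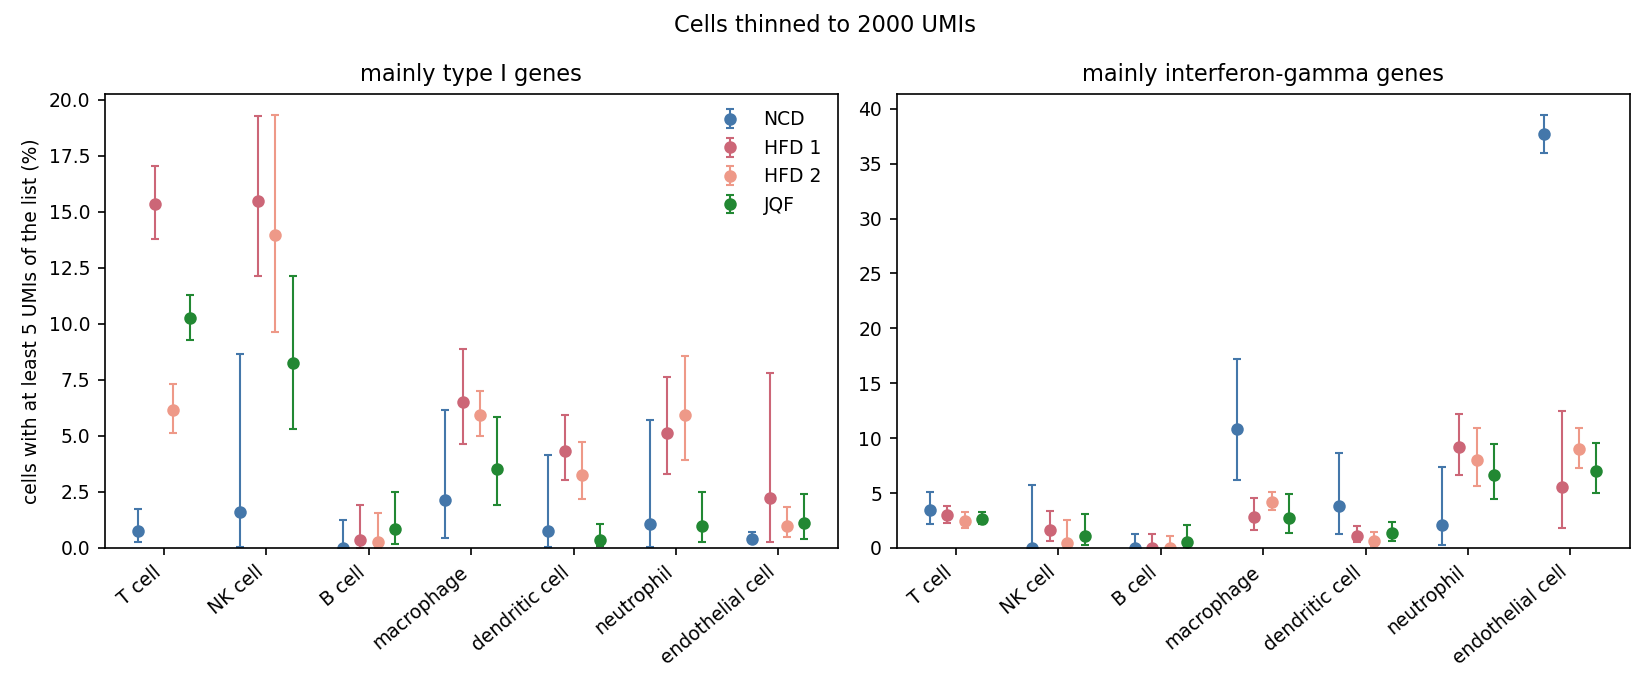
Share of cells, thinned to 2000 UMIs, with at least 5 UMIs of the mainly type I genes or of the mainly interferon-gamma genes, in percent, for each library and tested cell type, with exact 95% intervals. T and NK cells of HFD reach 6.14% to 15.5% for type I genes, and NCD endothelial cells reach 37.7% for gamma genes (3.35% without Iigp1, not plotted).

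T cells and macrophages were also split by marker UMIs, a choice made after the data were seen, and these subsets have levels only. T cells with Cd4 but no Cd8a had 160 CPM of the mainly type I genes in NCD, 1318 and 640 in the HFD libraries and 600 in JQF. T cells with Cd8a but no Cd4 had lower values, 36.6, 486, 254 and 351 CPM. T cells with neither gene gave 123, 1708, 738 and 853 CPM. The make-up of the T cells differed between libraries, with 211 of 675, 936 of 1951, 1136 of 1983 and 734 of 3515 in the Cd8a subset and 229, 609, 530 and 1835 in the subset with neither, and its part in the T cell values was not tested. Macrophages with a UMI of the Kupffer cell gene Clec4f had 1543 CPM of the gamma genes in NCD, 659 and 647 in the HFD libraries and 368 in JQF, and those without it had 667, 355, 457 and 445 CPM. The lower gamma level in HFD was seen in both macrophage subsets, and only 19 macrophages without Clec4f were found in NCD. Those with Clec4f were 131 of 150 in NCD, 182 of 585 and 1617 of 2399 in HFD and 257 of 418 in JQF. For the mainly type I genes they had 635, 713, 700 and 549 CPM, and those without Clec4f 291, 746, 598 and 528. The part of this make-up in the macrophage values was not tested.

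The other genes of the pathway were read from a fixed list. The ligand Ifng, made by T and NK cells, gave 712 CPM in NCD NK cells, 186 and 214 in HFD and 448 in JQF. It was lower in HFD (-2.04 ± 0.19, 6.15e-05) and higher in JQF than in HFD (1.27 ± 0.18, 0.00921). T cells gave 436, 278, 308 and 492 CPM (-0.60 ± 0.20, 0.0892 for HFD against NCD). Ifnb1, the type I ligand interferon-beta, gave 0.264 CPM (1 UMI) in NCD dendritic cells, 28.5 and 15.8 in HFD and 8.11 in JQF (adjusted p = 0.00533 for HFD against NCD). Monocytes, which were not tested, gave 75.1 and 19.2 CPM of Ifnb1 in HFD and 13.4 in JQF, and 0 of 420957 UMIs in NCD, which allows up to 7.13 CPM (3 UMIs). The receptor subunit Ifnar1 was lower in HFD T, NK, B and dendritic cells (-1.03, -1.35, -1.24 and -0.72), and the receptor genes called were lower in each case, 3 of 4 in NK cells (10.4% of all genes were lower), 2 in T cells (7.59%) and 1 in B (10.1%) and in dendritic cells (13.3%). Irf7, the factor that amplifies type I interferon, was higher in T cells (1.11), dendritic cells (1.55), neutrophils (1.40) and endothelial cells (1.35). Irf1, a factor of the gamma response, gave 843 CPM in NCD endothelial cells against 145 and 182 in HFD (-2.49 ± 0.23, 1.31e-10), and was higher in neutrophils (370 CPM against 882 and 610, 0.93 ± 0.29, 0.0334). Socs1, an inhibitor induced by interferons, gave 76.9, 8.46, 9.61 and 28.7 CPM in endothelial cells, lower in HFD (-3.17 ± 0.28, 4.37e-11) and higher in JQF than in HFD (1.60 ± 0.30, 0.00179). Of 8 other induced genes, 6 were higher in B cells (7.58% of all genes were) and in neutrophils (7.82%), among them the chemokine Cxcl10 (42.7, 244, 511 and 283 CPM in neutrophils, 3.07 ± 0.45, 0.000112), while Cxcl10 was lower in macrophages, dendritic cells and endothelial cells.

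Genes of dissociation stress, which respond to enzymatic digestion, moved in some of the same types. The summed level of 8 such genes was 18581 CPM in NCD dendritic cells, 6633 and 9223 in HFD and 10903 in JQF, and 5935, 1831, 1947 and 1824 CPM in endothelial cells. HFD was lower for 8 of 8 in endothelial cells (7.99% of all genes), 7 in dendritic cells (13.3%), 6 in NK cells (10.4%) and 4 in macrophages (5.15%). Their part in the gamma results, which moved in the same direction in endothelial cells, dendritic cells and macrophages, was not tested. In neutrophils, 1 stress gene was higher (7.82%) and 1 lower (7.52%). For JQF against HFD the median log2 difference of the 8 genes was 1.19 in T cells, 0.75 in macrophages and 0.74 in dendritic cells. It was 0.72 in B cells, 0.66 in NK cells, 0.32 in neutrophils and -0.07 in endothelial cells. In NK cells their sum was 10680, 3681, 5778 and 7144 CPM, the same order of libraries as for Ifng. Their part in the JQF and Ifng values was not tested.

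Types with fewer cells have levels only. Monocytes numbered 27 in NCD and 488 to 1015 in the others, and the summed mainly type I level was 197 CPM in NCD, 579 and 492 in the HFD libraries and 235 in JQF. Among genes with at least 10 UMIs over the 4 libraries, both HFD libraries lay above NCD for 43 of 50 members in monocytes (58.3% of all such genes) and 34 of 46 in plasmacytoid dendritic cells (44.9%), and below it for 6 in each (32.2% and 33.6%). In hepatocytes they lay above NCD for 15 of 41 (33.5%) and below it for 16 (53.1%), and in epithelial cells above it for 20 of 48 (26.7%) and below it for 8 (39.4%). JQF lay above both HFD libraries for 29 of 41 members in hepatocytes (46.8%), where the mainly type I level was 44.6 CPM in NCD, 73.0 and 72.7 in the HFD libraries and 330 in JQF, from 17 to 79 UMIs per library. Of the 23 JQF hepatocytes that could be thinned, 1 held at least 5 type I UMIs, at a mean of 1.96 per cell, and 23 of all 33 lay at the cut of the gate.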

How the data were processed

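Livers were profiled with 10x Genomics 3′ chemistry. The authors deposited counts of UMIs per gene and cell, raw and filtered, for each of 4 libraries, aligned to mm10. The Cell Ranger version was 6.0.1 in the processing notes, 7.0.0 in the filtered matrix headers and 4 in the raw ones, so whether intronic reads were counted is not settled. The notes also name Seurat 4.0.3. The filtered matrices were used here, and the raw ones gave the RNA outside cells.

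Kept cells had 500 or more genes and no more than 20% of mitochondrial UMIs, and were gated by marker lists, needing 3 or more markers for most types. The scoring rule was set after the marker counts were seen. Cells passing the gates of 2 lineages were left out, and no doublet caller was run. The members, lists and tests were chosen with earlier results of these data known. Mx1 and Mx2 were not analysed here.

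UMIs were summed per library and type and tested with edgeR 4.0.16 in R 4.3.3 (quasi-likelihood, TMM, filterByExpr, a group term with 1 residual degree of freedom, and Benjamini-Hochberg adjustment over all genes tested, threshold 0.05). The fit drew the spread of each gene towards a common trend over genes. The median weight of that trend was 3.75 (macrophages) to 36.6 (endothelial cells) degrees of freedom, so adjusted p-values of different types are not on 1 footing. SE is the log2 difference divided by the root of F. Differences between types were tested in joint fits. Named were 20 fixed members and, per type and comparison, the 2 called members of smallest adjusted p at a mean of at least 10 CPM. Intervals are exact at 95% and floors are 3 UMIs over a group. Both cover counting error only. Alternatives were DESeq2 1.42.0, no TMM, no gene filter, 2-lineage cells kept, a stricter gate, at most 10% mitochondrial UMIs, thinning to 2000 UMIs and leaving out each HFD library, or each library for the differences between types. The test was run on simulated counts with 200 changed genes. Every simulated library had the same spread, so that run could not test whether NCD and JQF vary like HFD. Gene positions came from GENCODE on GRCm38 and promoters from a RefSeq table of 32851 windows of 300 bases. Python 3.11.15, numpy 2.4.6, pandas 2.3.3 and scipy 1.17.1 were used.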

Additional observations from a re-analysis of the deposited data

Results flagged for a closer look

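The difference between HFD and NCD varied among the 7 tested cell types for 31 members, by a joint edgeR test of all types with adjusted p under the threshold. The adjusted p-values were Ifi209 0.0352, Ifi207 0.00532, Ifi204 0.00308, Ifi211 0.00194, Ifi203 0.00147, Zbp1 0.0411, Gbp5 0.0026, Gbp7 0.000428, Gbp2 0.00241, Isg15 0.00609 and Gbp4 0.00199. Those of the next members were Oasl1 0.0271, Oas1a 0.00182, Samd9l 0.00501, Herc6 0.00306, Trim30a 0.0427, Irgm1 0.00181, Ifi47 0.00194, Igtp 0.0181, Irgm2 0.0331, Slfn5 0.00662 and Rsad2 0.0192, and those of the remaining members were Ifi27l2a 0.00978, Rtp4 0.00979, Parp14 0.00129, Parp9 0.00799, Eif2ak2 0.0142, Iigp1 0.00178, Ifit2 0.0153, Ifit3 0.00703 and Ifit1 0.0138.

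The RNA outside cells, which no comparison above tested, held more of the mainly type I genes than in NCD (119 CPM): 450 CPM in HFD replicate 1, 414 CPM in HFD replicate 2 and 263 CPM in JQF.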

How the results depend on the processing

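One choice was changed at a time. No paired analysis was possible because the groups compared share fewer than 2 replicate numbers. With DESeq2, the members called in HFD against NCD were 2 in B cells, 6 in NK cells, 10 in T cells, 18 in dendritic cells, 7 in endothelial cells and 7 in neutrophils. The members called in JQF against HFD were 0 in NK cells and 0 in neutrophils with DESeq2. With no TMM scaling, the members called in HFD against NCD were 23 in NK cells. The members called in JQF against HFD were 2 in T cells, 8 in dendritic cells and 1 in macrophages with no TMM scaling. The JQF against HFD effect differed among types for 1 member with no TMM scaling. With no TMM scaling, the type I median for HFD against NCD became 5.39 in NK cells. With no gene filter, the members called in HFD against NCD were 26 in macrophages. The members called in JQF against HFD were 7 in NK cells, 3 in T cells, 7 in dendritic cells, 3 in endothelial cells, 18 in macrophages and 6 in neutrophils with no gene filter. The JQF against HFD effect differed among types for 17 members with no gene filter. With 2-lineage cells kept, the members called in HFD against NCD were 0 in macrophages and 0 in neutrophils. The members called in JQF against HFD were 1 in NK cells, 1 in dendritic cells and 0 in neutrophils with 2-lineage cells kept. With 2-lineage cells kept, the type I median for HFD against NCD became 4.33 in NK cells, 0.030 in endothelial cells and 1.14 in macrophages. The type I median for JQF against HFD became -0.54 in B cells and -1.39 in dendritic cells with 2-lineage cells kept. The interferon-gamma median for HFD against NCD became -0.78 in macrophages and 1.59 in neutrophils with 2-lineage cells kept. The interferon-gamma median for JQF against HFD became -0.33 in neutrophils with 2-lineage cells kept. With a stricter gate, the members called in HFD against NCD were 10 in B cells. The members called in JQF against HFD were 0 in dendritic cells and 0 in neutrophils with a stricter gate. With a stricter gate, the type I median for HFD against NCD became 1.96 in B cells, 4.28 in NK cells and 2.12 in dendritic cells. The interferon-gamma median for HFD against NCD became 0.067 in NK cells and 1.81 in neutrophils with a stricter gate. The interferon-gamma median for JQF against HFD became -0.32 in dendritic cells with a stricter gate. With at most 10% mitochondrial UMIs, the members called in JQF against HFD were 0 in NK cells, 7 in dendritic cells, 2 in endothelial cells and 7 in neutrophils. With cells thinned to 2000 UMIs, the members called in HFD against NCD were 9 in B cells, 15 in dendritic cells, 6 in macrophages and 0 in neutrophils. The members called in JQF against HFD were 10 in dendritic cells, 1 in endothelial cells and 0 in neutrophils with cells thinned to 2000 UMIs. With cells thinned to 2000 UMIs, the type I median for HFD against NCD became 4.19 in B cells, 3.55 in NK cells, 2.18 in dendritic cells, -0.093 in endothelial cells, 1.30 in macrophages and 2.01 in neutrophils. The type I median for JQF against HFD became -0.57 in B cells, -2.23 in dendritic cells and -1.06 in neutrophils with cells thinned to 2000 UMIs. The interferon-gamma median for HFD against NCD became 1.16 in B cells, 0.81 in NK cells, -1.02 in dendritic cells and -0.53 in macrophages with cells thinned to 2000 UMIs. The interferon-gamma median for JQF against HFD became 1.54 in B cells, 0.23 in dendritic cells and -0.64 in neutrophils with cells thinned to 2000 UMIs. The thinned type I medians rest on 2 genes in B cells, 6 in NK cells, 7 in endothelial cells and neutrophils and 9 in dendritic cells, and the gamma medians on 5 in B cells and 8 in NK cells and neutrophils. Leaving out 1 HFD library gave a type I median for HFD against NCD of 2.08 to 2.46 in T cells, -0.50 to -0.16 in endothelial cells and 0.92 to 1.48 in neutrophils. Leaving out 1 HFD library gave a type I median for JQF against HFD of -0.49 to 0.38 in T cells. Leaving out 1 HFD library gave an interferon-gamma median for HFD against NCD of 0.20 to 0.49 in NK cells, -0.92 to -0.65 in dendritic cells, -1.47 to -0.76 in macrophages and 1.79 to 1.92 in neutrophils. Leaving out 1 HFD library gave an interferon-gamma median for JQF against HFD of 0.21 to 0.50 in B cells, -0.036 to 0.37 in T cells, -0.55 to -0.38 in endothelial cells and -0.41 to 0.012 in macrophages. With 1 HFD library left there was no residual spread, so those medians are values without a test. Gbp2 in B cells turned to -0.13 when cells were thinned, and Rsad2 in B cells turned to -0.57 with a stricter gate, in HFD against NCD. Counts of 0 had members at an unadjusted p under the threshold: with 2-lineage cells kept, 25 in macrophages and 29 in neutrophils, and with thinned cells 20 in neutrophils, for HFD against NCD. Over the named members 58 values passed the threshold anew and 109 lost it, while 2140 were counted as unchanged. These 2140 include the 156 and 376 values without 1 HFD library, which have no p-value and were compared by direction only. Of differences that had passed, 2 of 525 turned direction, and 0 of 156 without 1 HFD library. Of those that had not, 60 of 1252 and 40 of 376 turned. The 63 totals called per type and 4 HFD against NCD counts of varying members stayed within 1.5 times. The causes were not tested. With 1 NCD and 1 JQF library, diet or formula cannot be told apart from library.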
